A study of Mus musculus with 4 samples.

Results

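The genes described here are 10 mouse genes: Acly, Acaca, Acacb, Fasn, Elovl5, Elovl6, Scd1, Acsl1, Srebf1 and Por. They make, extend, desaturate or activate fatty acids or control these steps, except Por, which was listed for electron supply. They were examined for binding of BCL6, a zinc finger repressor, in fat cells. Every deposited BCL6 peak whose nearest annotated promoter belongs to a listed gene was taken, at any distance. The rule gave 12 peaks: 5 of the 1785 peaks in inguinal (subcutaneous) fat and 7 of the 3956 peaks in perigonadal (visceral) fat. The genes were listed with earlier results of these peak lists known, so their counts describe these lists and test nothing.

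All libraries came from C57BL/6 mice carrying Adipoq-Cre and Sun1-sfGFP-myc. Adipoq-Cre acts in adipocytes, and their tagged nuclear envelopes were captured with beads against myc after fixation of the minced tissue. Chromatin of these nuclei was precipitated with a custom antibody to Bcl6 raised in guinea pigs. The series has 4 samples, a BCL6 and an input library from each of the 2 depots. The labels used here give neither the age nor the sex of the mice, nor how many animals entered a library. Peaks were taken from the BCL6 libraries, and the input libraries were not analysed here. With 1 library per depot no test between depots was possible.

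Fat cells build fatty acids from citrate. ATP citrate lyase releases acetyl-CoA, acetyl-CoA carboxylase turns it into malonyl-CoA, and fatty acid synthase joins these units into palmitate. Elongases and desaturases then lengthen the chain and insert double bonds, acyl-CoA synthetases activate free fatty acids for storage or oxidation, and the transcription factor SREBP-1 switches on most of these genes. BCL6 recruits corepressors to DNA, and the sites it prefers resemble those of STAT factors.

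A height in these lists is the authors' peak score, which is scaled within a list and so gives no direction between depots. Every inguinal score is a whole number of steps of 0.752 and every perigonadal score a whole number of steps of 0.882. Each step was read as 1 sequenced tag. A score is given with the Poisson 95% interval of its tags, which covers counting error only, since PCR copies of a molecule cannot be told apart here. All peaks of the inguinal list ran from 6.77 to 200.1 with a median of 9.03, and those of the perigonadal list from 5.29 to 260.1 with a median of 8.82. The 5 inguinal peaks at the fatty acid genes had scores of 9.03 to 18.8 with a median of 11.3. The 7 perigonadal peaks had scores of 8.82 to 50.2 with a median of 10.6. Of these peaks 4 of 5 inguinal and 3 of 7 perigonadal ones rested on more than 12 tags, against 41.3% and 24.0% of all peaks. A check of the labelled cell type is limited, because peaks do not measure expression. Among adipocyte marker genes (Adipoq, Plin1, Fabp4, Cidec and Lep) 2 of 5 had an inguinal and 1 of 5 a perigonadal peak, and of the markers Ptprc, Adgre1, Pecam1, Pdgfra and Krt8 of other cells 0 of 5 had a peak in either list. Over all protein-coding genes the shares were 6.15% for the inguinal list, 12.3% for the perigonadal list and 15.4% for either, so counts this small do not check the cell type.

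Peaks were found at 8 of the 10 genes. Por, Elovl5 and Acsl1 had peaks in both lists, Elovl6 in the inguinal list alone, and Acacb, Acly, Scd1 and Srebf1 in the perigonadal list alone. Acaca and Fasn had none. In the inguinal list 4 of 10 genes had a peak, beside 6.15% of all 21887 protein-coding genes. In the perigonadal list 7 of 10 had a peak, beside 12.3% of all. For either list the counts were 8 of 10 and 15.4%. A peak shared between the lists, by an overlap of at least 1 bp, was assigned to 2 of 10 genes, Por and Elovl5, and to 1.86% of all. The 10 genes are long, with a median of 65.2 kb against 17.2 kb for all protein-coding genes. Among the 11808 protein-coding genes between the shortest and the longest of them (13.3 and 272 kb) the shares were 8.21% for the inguinal list, 15.6% for the perigonadal list, 19.7% for either and 2.51% for a shared peak. In that range 4.03% had a peak in both lists. Only the range was set alike, and lengths within it were not matched to those of the 10 genes.

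**Figure D1:**
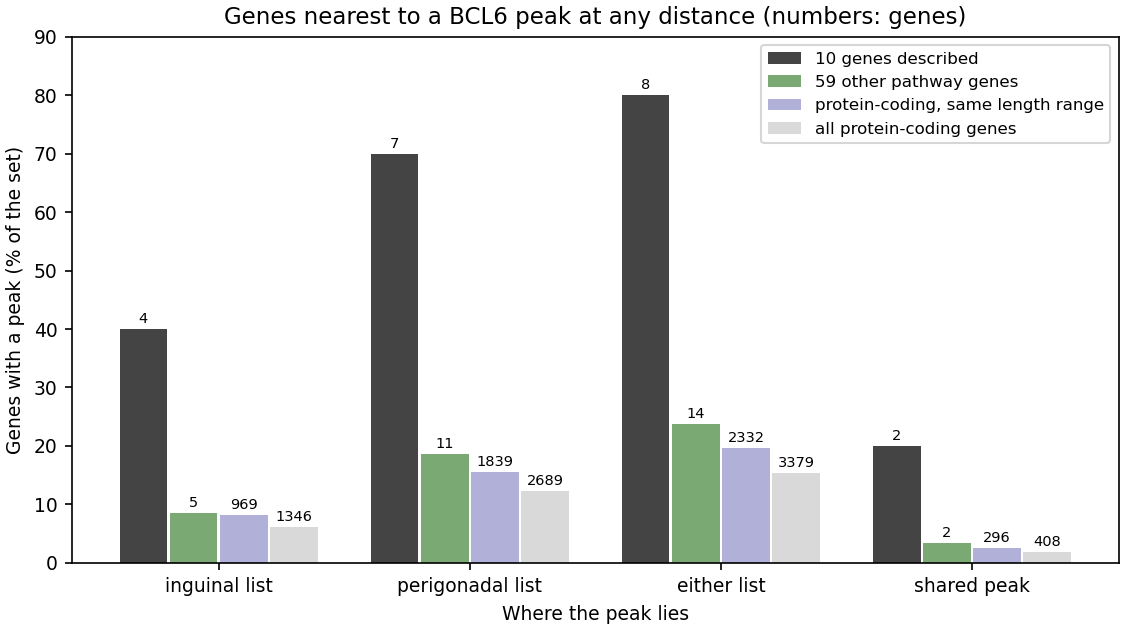
Share of genes with a BCL6 peak (vertical axis, percent of the set) in the inguinal list, the perigonadal list, either list, or as a shared peak, for the 10 fatty acid genes, 59 other genes of the pathway, protein-coding genes of the same length range and all protein-coding genes. The numbers over the bars count genes, and the 10 genes, which were chosen with peaks known, stand at 4, 7, 8 and 2.

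ATP citrate lyase, the enzyme that supplies cytosolic acetyl-CoA, had its peak in perigonadal fat. The Acly peak lay in intron 8 of 28 of the gene at chromosome 11:100515725-100515909, 12.2 kb downstream of the promoter. Its score was 8.82 (Poisson interval 4.23 to 16.2), which is 10 tags, the median of that list, and a height common to 1398 peaks. A further perigonadal peak with a score of 8.82 lay 8.05 kb beyond the span of Acly, in the intron of its neighbour Klhl11, to which the authors assigned it. In the inguinal list the closest peak was 55.7 kb from Acly, in an intron of Cnp, with a score of 8.27. The peaks at Acly were low and came from a single depot.

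The genes for the acetyl-CoA carboxylases differed in their peaks. Acacb encodes the carboxylase at the mitochondrial surface, whose malonyl-CoA restrains fatty acid oxidation. It had a perigonadal peak at chromosome 5:114161583-114161767 with a score of 12.3 (6.75 to 20.7), or 14 tags, which ranked 690 among 3956 peaks together with the 117 peaks of that score. The authors annotated this peak as intergenic, 3.84 kb upstream of the promoter. In the RefSeq gene table the span of Acacb begins 19.2 kb upstream of that start, so the peak lies inside the annotated gene. No inguinal peak lay closer to Acacb than 331 kb. Acaca, which encodes the cytosolic carboxylase that makes malonyl-CoA for synthesis, had no peak in either list. The same held for 84.6% of all protein-coding genes and 80.3% of those in the length range of the 10 genes. Acaca is the longest of the 10, at 272 kb. The closest peaks were 377 kb away in the inguinal list, at Heatr6 with a score of 7.52, and 114 kb away in the perigonadal list, near Aatf with a score of 8.82.

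Fasn, the gene of fatty acid synthase, had no peak assigned to it. The closest inguinal peak, with a score of 19.6, lay 350.3 kb from the gene and was assigned to Uts2r. The closest perigonadal peak, with a score of 12.3, lay 58.8 kb away in intron 12 of 18 of Ccdc57. A missing peak means that none was called in these lists, and with library depth unknown, binding below the calling limit cannot be judged.

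Both elongase genes had intronic peaks. Elovl5 encodes an elongase of polyunsaturated fatty acids, and its peak lay in intron 1 of 7, 22.1 kb downstream of the promoter, in both depots. In inguinal fat it was at chromosome 9:77939329-77939531 with a score of 18.1 (11.6 to 26.9), or 24 tags, and ranked 200 among 1785 peaks. In perigonadal fat it was at chromosome 9:77939352-77939536 with a score of 10.6 (5.47 to 18.5), or 12 tags, and ranked 951 among 3956. The calls overlapped by 180 bp, 97.3% of the shorter peak, and their centres were 14 bp apart. The next promoter of another protein-coding gene, that of Gcm1, was 113 kb from the inguinal peak. Elovl6 encodes the elongase that extends palmitate to stearate. Its inguinal peak lay in intron 2 of 4 at chromosome 3:129588804-129589006, 56.5 kb downstream of the promoter, with a score of 9.03 (4.66 to 15.8), which is 12 tags and the median of its list. The closest perigonadal peak was 53.8 kb outside the gene, near Gm5712, with a score of 8.82. Of Elovl5 and Elovl6, Elovl5 had the shared site.

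Scd1 encodes the stearoyl-CoA desaturase, which makes monounsaturated fatty acids. A perigonadal peak lay in its 3′ UTR, in exon 6 of 6, at chromosome 19:44394604-44394788 and 13013 bp downstream of the promoter. The score was 8.82 (4.23 to 16.2), or 10 tags. Its focus ratio, a deposited fraction for how tightly tags gather at the peak centre, was 0.600, the lowest among the 12 peaks, where the median over all perigonadal peaks was 0.833. In the inguinal list the closest peak lay 49976 bp from Scd1 and was assigned to Wnt8b, with a score of 8.27.

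Por encodes the reductase that passes electrons from NADPH to microsomal cytochrome P450 enzymes and can also reduce cytochrome b5, the carrier that serves desaturases. It had the tallest peak of the 10 genes in each list, at the same site, though by only 1 tag over Elovl5 in the inguinal list. In perigonadal fat this peak, at chromosome 5:135667027-135667211, had a score of 50.2 (38.1 to 65.1), or 57 tags, and ranked 29 among 3956, within the top 0.733% of the list. In inguinal fat it was at chromosome 5:135667003-135667205 with a score of 18.8 (12.2 to 27.8), or 25 tags, and ranked 181 among 1785, within the top 10.1%. The calls overlapped by 179 bp, 96.8% of the shorter peak, with centres 15 bp apart. Both were annotated as intergenic, 22.0 kb upstream of the promoter. The RefSeq span of Por begins 19.1 kb upstream of that promoter, and the shared peak lies 2.83 kb outside this span. Among the promoters of other protein-coding genes in the RefSeq table the closest, that of Rhbdd2, was 34.5 kb away. The perigonadal peak was also the most focused of the 12, with a focus ratio of 0.950. A lower inguinal peak followed 5.94 kb farther toward the promoter, at chromosome 5:135672946-135673148, with a score of 9.78 (5.21 to 16.7), or 13 tags. It lies inside the RefSeq span of Por and had no partner in perigonadal fat.

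**Figure D2:**
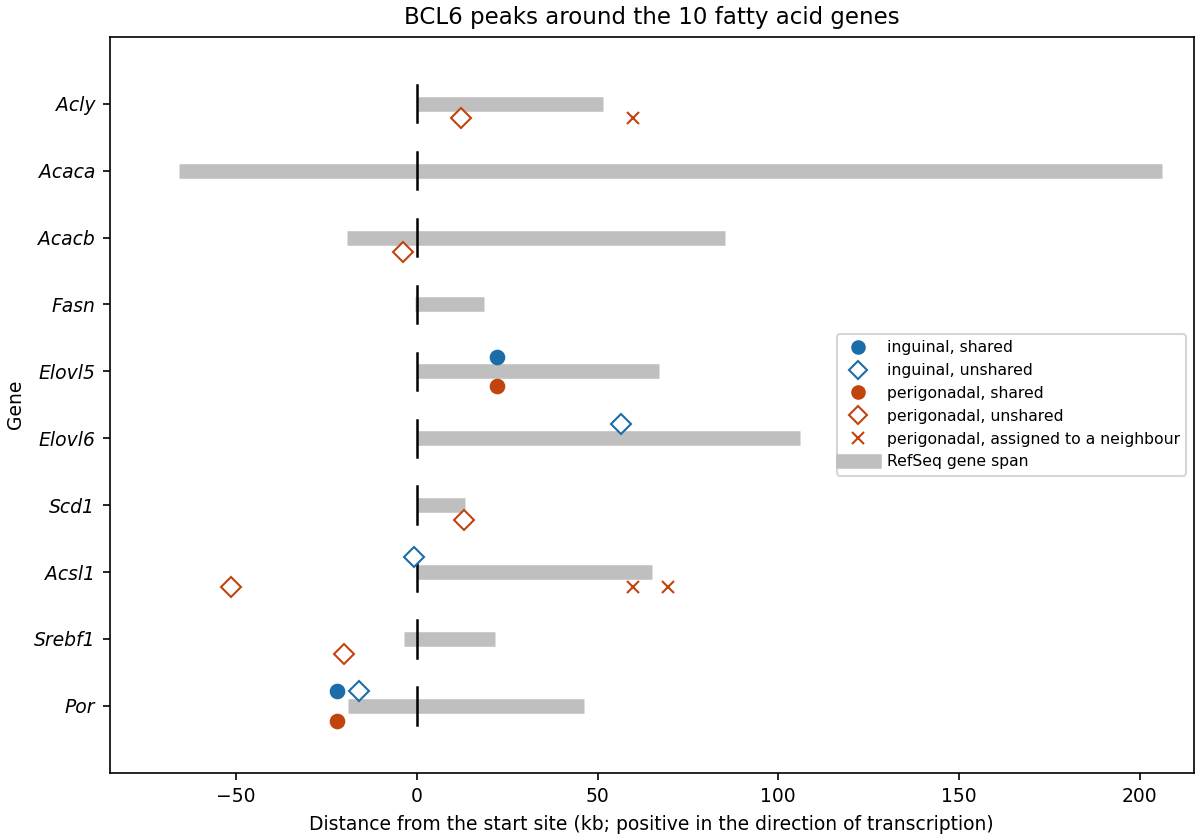
BCL6 peaks around the 10 genes, with the distance from the start site in kb on the horizontal axis (the authors' promoter, or for Acaca and Fasn the start in the RefSeq promoter table) and 1 gene per row. Grey bars are RefSeq gene spans, blue marks above a bar are inguinal and red marks below it perigonadal peaks, filled where shared, and crosses are peaks in or within 10 kb of a span that were assigned to a neighbour. Por and Elovl5 show a blue and a red filled mark at the same distance, 22.0 kb upstream and 22.1 kb downstream, and the rows of Acaca and Fasn are empty.

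Acsl1 encodes the main long-chain acyl-CoA synthetase of fat cells, which activates fatty acids. It had peaks in both depots, but at different places. The inguinal peak was the closest of the 12 to a start site, 0.892 kb upstream, at chromosome 8:46470044-46470246, and the only peak of the 12 that the authors annotated as promoter. Its score was 11.3 (6.31 to 18.6), or 15 tags. The position also lies within the span of the gene Gm31050 in the RefSeq table. The assigned perigonadal peak lay 51.4 kb upstream, at chromosome 8:46419510-46419694, with a score of 15.0 (8.73 to 24.0), or 17 tags, and 50.5 kb from the inguinal peak. Another perigonadal peak lay inside Acsl1, in intron 16 of 20 at chromosome 8:46530817-46531001, with a score of 9.70 (4.84 to 17.4), but was assigned to Cenpu, whose promoter was 21.2 kb away. A further perigonadal peak, also assigned to Cenpu, lay 4.50 kb beyond the end of Acsl1 with a score of 8.82. None of the 4 peaks in or around Acsl1 was shared, although both depots had peaks there.

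Srebf1 encodes SREBP-1, the transcription factor that activates lipogenic genes. Its perigonadal peak, at chromosome 11:60240737-60240921, lay 20.2 kb upstream of the promoter with a score of 9.70 (4.84 to 17.4), or 11 tags. The peak is inside the neighbouring gene Tom1l2, in the 3′ UTR of exon 12 of 12, and 16.6 kb outside the span of Srebf1. The promoter of Tom1l2 was 112 kb away, farther than that of Srebf1. In the inguinal list no peak lay within 1499 kb of Srebf1. The peak is assigned to Srebf1 by distance alone.

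**Figure D3:**
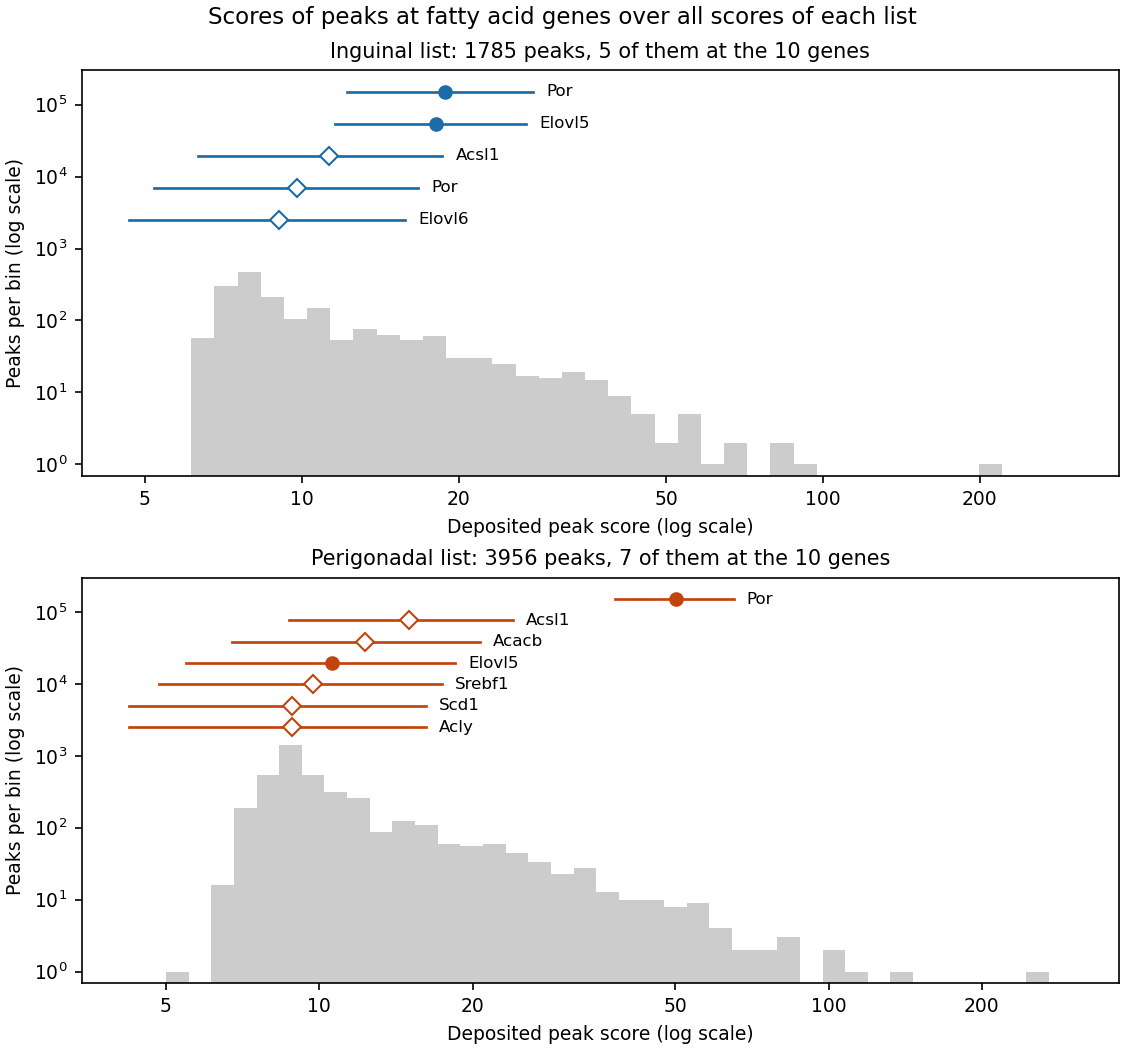
Histograms of the deposited peak scores (horizontal axis, log scale) in the inguinal and perigonadal lists, with peaks per bin on a log axis. Each mark over a histogram is 1 peak at a fatty acid gene, filled where shared, with the Poisson 95% interval of its tags as a line, and its height on the page has no meaning. The perigonadal Por peak, at 50.2, stands apart from the other perigonadal peaks of these genes, at 8.82 to 15.0, while the inguinal ones run from 9.03 to 18.8.

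Of the 12 peaks, 7 lay inside the RefSeq span of the gene they were assigned to. That share was not computed for all peaks, and these genes are long, with a median of 65.2 kb against 17.2 kb. By the authors' annotation the 5 inguinal peaks were 2 intronic, 2 intergenic and 1 promoter peak, where introns held 47.0%, intergenic positions 43.5% and promoters 5.27% of the list. The 7 perigonadal peaks were 3 intergenic, 2 intronic and 2 in a 3′ UTR, the latter at Scd1 and Tom1l2. Over the whole perigonadal list 42.9% were intergenic, 47.1% intronic and 1.14% in a 3′ UTR. By the authors' distances 1 of 5 inguinal peaks (Acsl1) and 1 of 7 perigonadal peaks (Acacb) lay within 10 kb of a promoter, against 25.8% and 26.0% of all peaks. These distances depend on the start site used. The RefSeq spans of Por and Acacb begin 19.1 and 19.2 kb upstream of it. The median distance was 22.0 kb and 20.2 kb, against 29.2 kb and 31.0 kb over the lists. None of the 12 lay in an annotated repeat, which held 21.1% of all inguinal and 24.0% of all perigonadal peaks. With so few peaks these counts are a description.

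Sharing at these genes can be read beside peaks of the same height. Over the whole lists 28.5% of inguinal and 12.8% of perigonadal peaks had a partner, and the share rose with the number of tags. Among inguinal peaks of 21 to 40 tags 78.0% were shared (Wilson 95% interval 72.1 to 82.9%), and both peaks of the fatty acid genes in this range, at Por and Elovl5, were. Among inguinal peaks of 13 to 20 tags 43.5% were shared (38.9 to 48.1%). The Acsl1 promoter peak and the lower Por peak fall in this range and were not. Up to 12 tags, the range of the Elovl6 peak, the share was 6.88%. Among perigonadal peaks over 40 tags, the range of the Por peak, 93.8% were shared (85.0 to 97.5%). Of 13 to 20 tags 29.0% were, and the Acsl1 and Acacb peaks in this range were not. Up to 12 tags 3.13% of perigonadal peaks were shared (2.56 to 3.81%). Of the 4 peaks of fatty acid genes in this range, at Elovl5, Srebf1, Scd1 and Acly, only that of Elovl5 had a partner.

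**Figure D4:**
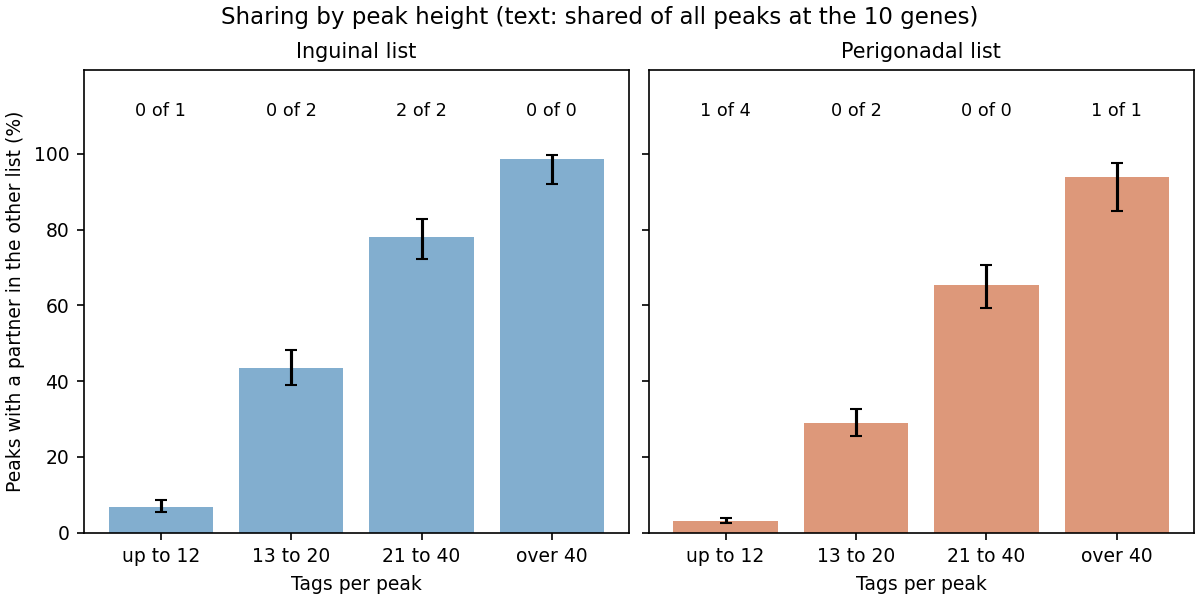
Percent of peaks with a partner in the other depot's list (vertical axis) by the number of tags per peak (horizontal axis), with Wilson 95% intervals as error bars, for all inguinal and all perigonadal peaks. The text over the bars gives shared peaks out of all peaks at the 10 genes, which are 0 of 1, 0 of 2, 2 of 2 and 0 of 0 in the inguinal panel and 1 of 4, 0 of 2, 0 of 0 and 1 of 1 in the perigonadal panel.

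Other genes of the pathway, 59 in number, had a peak in the inguinal list for 5 members (8.47%) and in the perigonadal list for 11 (18.6%), beside 6.15% and 12.3% of all protein-coding genes. For either list the count was 14 (23.7%), beside 15.4% of all protein-coding genes and 19.7% of those in the length range given above. A shared peak was assigned to 2 of 59 (3.39%), beside 1.86% and 2.51%. These shares are near the background. The tallest was at Insig1, which encodes the endoplasmic reticulum protein that retains SREBP precursors when sterols are plentiful. It lay 33.6 kb upstream of the promoter in both depots, at chromosome 5:28037758-28037960 with an inguinal score of 13.5, or 18 tags (10.7 to 28.4), and at chromosome 5:28037741-28037925 with a perigonadal score of 29.1, or 33 tags (22.7 to 46.3). It ranked 357 among inguinal and 106 among perigonadal peaks. The other shared site was 91.3 kb upstream of Acsl4, an acyl-CoA synthetase gene with a preference for arachidonic acid, with scores of 9.03 and 9.70.

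By step of the pathway, peaks in either list were found at 1 of 9 genes of substrate supply and NADPH (Me1), 1 of 10 of activation (Acsl4), 3 of 11 of the elongation cycle (Hsd17b12, Hacd1 and Hacd4) and 3 of 9 of desaturation and its electron carriers (Fads1, Cyb5a and Cyb5b). They were also found at 4 of 15 control genes (Insig1, Nr1h3, Mid1ip1 and Brca1) and 2 of 5 genes of glycerolipid assembly (Gpam and Lpin1). With so few genes in each step, these counts are not set apart from the 15.4% of all protein-coding genes with a peak in either list. Unshared perigonadal peaks of more than 12 tags lay 1.52 kb upstream of Fads1, the delta-5 desaturase gene, with a score of 11.5, and 4.29 kb upstream of Cyb5b, a cytochrome b5 gene, with 12.3. Another lay in intron 7 of 9 of Nr1h3, which encodes the sterol-sensing receptor LXR-alpha, with 13.2. The inguinal peak assigned to Gpam, a glycerol-3-phosphate acyltransferase gene, scored 10.5 but lay 279 kb from the promoter. That of Lpin1, a phosphatidate phosphatase gene, lay 198 kb away with the lowest score of its list, 6.77. Within each list all these scores were below that of the Por peak.

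Promoter sequences, of 250 bases before to 50 after a start site, were present in the RefSeq table (GRCm38.p6, the assembly of mm10) for 12 start sites of 9 of the 10 genes, all but Scd1. The RefSeq spans of Acaca, Acacb and Por begin 65.8, 19.2 and 19.1 kb upstream of their listed starts. Those of Srebf1 and Fasn begin 1.60 and 0.619 kb upstream of the outermost listed start. Their windows thus lie inside the gene spans, and the sequence at the upstream ends was not searched. No peak of either list overlapped any of the 12 windows. The share of all 32851 windows overlapped by a peak was not computed. Only 94 inguinal and 177 perigonadal peaks were annotated as promoter, so this count does not set these genes apart. The peak closest to any of the 12 windows was the inguinal Acsl1 peak, 541 bp away, followed by the perigonadal Acacb peak, 3.50 kb away. The 250 bases upstream of the starts of these genes are shown because they are the promoters nearest to a BCL6 peak. The second Acsl1 start is included for the letters in capitals, which match the sterol response element TCACNCCAC on the reverse strand. Positions are counted backward from the base before the start. The windows lie at chr8:46470787-46471036, chr8:46490716-46490965 and chr5:114165268-114165517, all on the plus strand.
Acsl1 upstream start: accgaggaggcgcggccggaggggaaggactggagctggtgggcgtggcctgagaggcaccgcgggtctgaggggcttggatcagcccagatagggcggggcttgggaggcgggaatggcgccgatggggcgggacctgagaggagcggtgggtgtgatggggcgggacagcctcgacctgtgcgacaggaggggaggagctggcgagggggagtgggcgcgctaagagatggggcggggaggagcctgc
Acsl1 downstream start: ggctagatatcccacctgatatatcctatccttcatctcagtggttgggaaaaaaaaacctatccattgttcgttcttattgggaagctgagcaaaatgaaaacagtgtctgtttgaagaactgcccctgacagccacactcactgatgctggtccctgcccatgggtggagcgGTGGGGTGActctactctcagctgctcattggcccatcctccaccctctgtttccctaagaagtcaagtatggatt
Acacb: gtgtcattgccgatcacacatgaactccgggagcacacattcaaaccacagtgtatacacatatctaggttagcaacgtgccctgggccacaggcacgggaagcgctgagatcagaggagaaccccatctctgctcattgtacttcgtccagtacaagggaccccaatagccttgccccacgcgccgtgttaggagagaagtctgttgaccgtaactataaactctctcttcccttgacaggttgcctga

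The BCL6 core TTCCNNGAA was found, on either strand, in 0 of 12 windows and the broader STAT core TTCNNNGAA, of which it is a special case, in 0 of 12 as well, against 4.81% and 8.30% of all 32851 promoter windows. TCACNCCAC occurred in 1 of 12, at the downstream Acsl1 start beginning at position -76, against 1.24% of all. The E-box CACGTG occurred in 1 of 12, at Elovl5 beginning at position -161, against 7.15% of all. The 250 bases before the upstream Acsl1 start were 72.0% G and C, and those before the downstream start 48.4%, against a median of 52.4% for all promoters. A high value was not particular to Acsl1. It was 70.8% at the most downstream Srebf1 start, 69.2% at Fasn and 68.8% at Acly. These matches concern promoters without a peak on them and say nothing of the letters under the peaks, whose sequences were not analysed here.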

How the data were processed

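Peak lists of 1 inguinal and 1 perigonadal BCL6 library were used. The submitters' processing notes name Bowtie 1.2, HOMER and mm10, and HOMER made the annotations on mm10, per the file headers. A false discovery rate of 0.001 stands in the inguinal header and no threshold in the perigonadal header. The deposited peak score, the focus ratio (a deposited fraction) and the distance to the nearest promoter (in bp) are the authors' values. All scores (100%) were whole multiples of a step within rounding, and the step was read as 1 tag. The library totals, and so the depth, are unknown.

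Peaks were 202 bp and 184 bp long. Genes were matched by Entrez number to the RefSeq table of GRCm38.p6, which also gave gene spans, and promoter windows came from the matching RefSeq sequence table. Protein-coding genes on the autosomes, X and Y formed the background. Every one of the 10 genes and 59 pathway genes matched. Poisson intervals were exact and shares carry Wilson intervals, both at 95%, computed with Python 3.11.15, SciPy 1.17.1 and statsmodels 0.14.6. Functions were tested on simulated data. All 10 genes and their peaks are named, and of the pathway genes those with a peak of more than 12 tags or a shared peak, with other genes named to complete a count. The members and lists were chosen with earlier results of these data known. Alternatives covered the distance to the promoter, peak height, assignment by gene span, list length, the overlap rule and the motif.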

Additional observations from a re-analysis of the deposited data

How the results depend on the processing

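Counts of the 10 genes with a peak changed with distance and height. Within 10 kb of the promoter 1 gene had an inguinal peak, 1 a perigonadal peak and 2 a peak in either list. At that distance the background was 396 of all protein-coding genes (1.81%) for the inguinal list and 872 (3.98%) for the perigonadal list. With more than 12 tags the inguinal count was 3, the perigonadal count 3, the count for either list 4 and the number of shared sites 1 (Por). With that limit the background was 576 genes (2.63%) for the inguinal list and 721 (3.29%) for the perigonadal list. Within 50 kb the counts were 3, 6 and 7, while 931 (4.25%) and 1946 (8.89%) of all protein-coding genes had an inguinal or perigonadal peak. The counts were, with peaks in or within 10 kb of the gene span, 4, 6 and 7, and with lists of equal length, 4, 5 and 6, in the order inguinal, perigonadal and either list. For the gene span and the lists of equal length no share over all genes is given here. The same holds for the either-list counts at each of these limits. Those counts therefore cannot be set against a background. Both shared sites were found with an overlap of at least 0.5 of the shorter peak and with centres within 500 bp. The motif count was 0 with either set of letters. No paired analysis was possible because each depot had 1 library. The lists may have been called at different limits, and a peak of 10 tags has a Poisson interval of 4.80 to 18.4 tags.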
